A study of Mus musculus with 6 samples.

Results

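The transcript levels of EpiLCs (d2) labelled *Tet1*/*Tet2* KD were set against those of EpiLCs (d2) with a scramble shRNA, gene by gene, at the stage before PRDM14 was to be induced. Each side of the comparison is 1 of the 6 arrays of the series, and there are no replicates, so no difference below carries an error or a p-value, and precision is limited by the number of arrays. All 17097 genes with a probe set of 1 gene symbol were included, out of 45037 probe sets of which 28898 carry 1 symbol. The deposited values are log2 signals, and every value below is that log2 signal minus the median of its own array, so that 0 is the level of a typical probe set. A difference is the value in the KD-labelled array minus the value in the scramble array, and a gene was called higher or lower when the difference was at least 1.5-fold (0.58 on the log2 scale).

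EpiLCs are epiblast-like cells, made by exposing mouse ESCs for 2 days to activin A and bFGF on fibronectin, and they stand for the early post-implantation epiblast. Both cultures derive from the mouse ESC line E14tg2a. A *Prdm14* transgene under doxycycline control was integrated with the piggyBac transposon and was not to be switched on at this stage. The culture labelled KD was transduced as ESCs with lentiviral shRNAs against *Tet1* and *Tet2* and selected with drugs, and the other one carries a scramble shRNA. The labels do not say which scramble hairpin that is, and the sources used here do not say whether either line is 1 clone. The other arrays of the series are ESCs, whose label names no shRNA, scramble EpiLCs (d4) kept for 2 further days, scramble EpiLCs + PRDM14 and EpiLCs + PRDM14 labelled *Tet1*/*Tet2* KD. They serve below to show where the day 2 levels lie. By the paper's methods, cells were replated after day 2 in another medium, Glasgow minimum essential medium with serum replacement. The EpiLCs (d4) and + PRDM14 cultures thus differ from both day 2 cultures in medium and replating too.

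TET enzymes oxidise the methyl group of 5-methylcytosine, and the oxidised bases can be excised by base excision repair and replaced with plain cytosine. *Tet1* and *Tet2* are the family members that naive ESCs use most, whereas *Tet3* acts mainly in the oocyte, the zygote and later tissues. On the way from ESCs to EpiLCs the naive factors, such as *Nanog* and *Klf4*, are turned down, DNA methylation is gained, and the primed epiblast factors, such as *Fgf5*, *Pou3f1* and *Otx2*, are turned up.

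The knockdown rests on the hairpins, so their sense strands, which equal the targeted stretch of the mRNA or its scrambled version, are shown here from the study's list of oligonucleotides. Capitals mark the bases that pair with positions 2 to 8 of the antisense strand, the seed with which a guide strand first contacts its target.
Tet1: gcagctagctataGAGTATAg
Scramble (Tet1): gcgaggctataagTCGTAATa
Tet2: actactaactcCACCCTAa
Scramble (Tet2): cgtagaatatgTACCTGGt
The *Tet1* hairpin and its scramble have 21 bases in the stem and the same base composition. The *Tet2* hairpin and its scramble have 19 bases in the stem, with 8 G or C bases in each but not the same composition. All 4 seeds differ.

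*Tet2* was not lower in the KD-labelled array at day 2. Its brighter probe set read 3.25 in the scramble array and 3.43 in the KD-labelled array, and its dimmer probe set 0.67 and 0.88. The differences of 0.17 and 0.21 lie inside the threshold. In the arrays labelled + PRDM14 the brighter probe set read 3.23 with the scramble and 2.69 with the KD label, a difference of -0.54, inside the threshold. The level of 2.69 was the lowest of the series, since the 4 arrays without the label read between 3.08 and 3.64. As deposited, where these 2 arrays have medians of 5.28 and 5.07, the decrease is larger and passes the threshold. No probe set carries the symbol *Tet1* in the annotation, so *Tet1* was not analysed here. At day 2 the KD label was not borne out by the target that could be read. The text therefore speaks of the array labelled KD throughout. The paper says that it checked the knockdown by qRT-PCR and western blot, and those measurements were not examined here. *Tet3* was called higher, at -0.49 in the scramble array and 0.21 in the KD-labelled array. It read between -0.49 and -0.31 in the 4 arrays without the label and 0.24 in the KD-labelled + PRDM14 array. With the values as deposited *Tet3* did not pass the threshold at day 2. *Prdm14* itself, on its 1 probe set, read -0.24 and -0.22, with 1.67 in ESCs. In the arrays labelled + PRDM14 it read -0.34 with the scramble and -0.37 with the KD label. This probe set therefore does not show whether the transgene was on in any array.

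A second property of the arrays touches every result below. As deposited, both KD-labelled arrays have medians of 5.07, and the other 4 have medians between 5.28 and 5.29. The sorted values of 2 arrays within either set differ by 0.00637 to 0.0114 on average, and those of arrays from different sets by 0.195 to 0.208. The KD-labelled arrays were thus probably normalized apart, and the KD label cannot be told apart from that difference in processing. The sources used here do not say whether these arrays were also labelled or scanned apart. After the array medians were subtracted, the median difference between the day 2 arrays was 0.03 over all genes and between -0.00294 and 0.0348 in each of 5 equal groups of probe sets ranked by signal.

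Of the 17097 genes, 564 (3.3%) were called higher in KD-labelled EpiLCs (d2) and 385 (2.25%) lower. At 2-fold the counts were 85 and 37. Higher calls made up 59.4% of the calls. With the values as deposited, which differ by -0.21 between the medians of the 2 arrays, 192 genes were higher and 1276 lower, so that higher calls made up 13.1%. Calls were most frequent among probe sets of middle signal, at 10.2% in the middle of the 5 groups against 0.450% in the dimmest and 4.29% in the brightest.

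**Figure D1:**
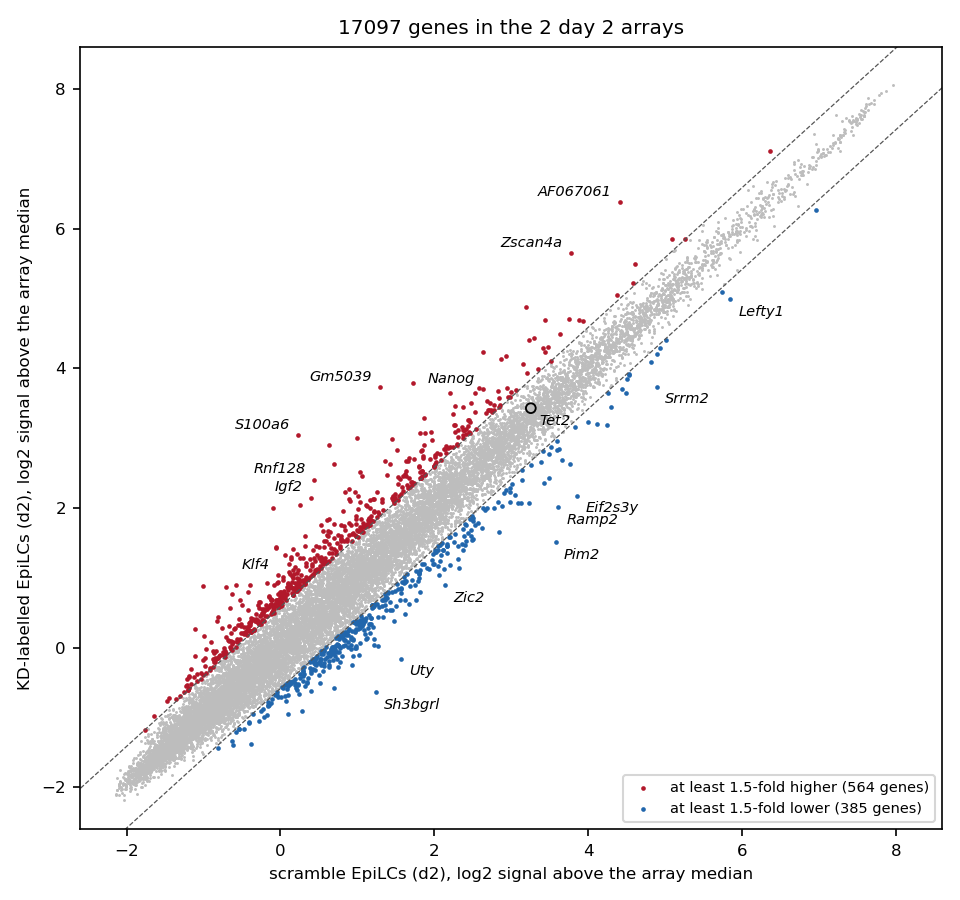
Level of each gene in scramble EpiLCs (d2) (horizontal axis) and in KD-labelled EpiLCs (d2) (vertical axis), both as log2 signal above the array median, with 1 array per axis. Dashed lines mark 1.5-fold; the 564 genes called higher are red, the 385 called lower blue, and *Tet2*, circled, lies between the lines.

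Most EpiLC markers were within 1.5-fold between the arrays, and *Zic2* and 1 probe set of *Dnmt3b* were lower. *Pou3f1*, an octamer-binding factor of the primed epiblast, read 3.73 in the scramble array, 3.51 in the KD-labelled array and -0.38 in ESCs. *Fgf5*, the growth factor that marks the post-implantation epiblast, read 1.02 and 1.32 against 0.09 in ESCs. *Otx2*, a homeobox factor that directs the move to the primed state, read 2.95 and 2.77 against 1.24 in ESCs. Of the de novo methyltransferase genes, *Dnmt3a* read 4.47 and 4.05. The probe sets of *Dnmt3b* disagreed: the brighter one read 6.19 and 5.84, inside the threshold, and the other, also bright, read 5.06 and 3.98, a difference of -1.08 that passed it. Within 1.5-fold were also the shared pluripotency factors *Pou5f1* (5.60 and 5.68) and *Sox2* (5.63 and 5.88). *Zic2* passed the threshold, at 2.14 and 0.89.

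Naive pluripotency genes were higher in the KD-labelled array. Of 27 measured genes, 11 were called higher and 0 lower, beside 3.3% higher and 2.25% lower over all genes. The median difference was 0.55, beside 0.03 over all genes. The median level of the list was 1.88 in scramble EpiLCs (d2), 2.41 in KD-labelled EpiLCs (d2) and 3.67 in ESCs, so the KD-labelled array stood between the other two. In bulk RNA a larger share of cells with naive expression and more RNA per cell cannot be told apart. The count was 11 under quantile normalization and under the lowess curve too, and with the values as deposited it was 7, with a median of 0.33.

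The orphan nuclear receptor gene *Nr0b1*, a partner of the OCT3/4 network, read 1.06 in scramble EpiLCs (d2) and 2.45 in the KD-labelled array. Its level was 2.78 in ESCs and 1.00 in EpiLCs (d4). The difference of 1.39 was the largest of the list, and *Nr0b1* in the KD-labelled array came close to the ESC level. *Tcl1*, a cofactor of AKT kinases that supports self-renewal, read 0.60 and 1.82, with 3.01 in ESCs and 0.52 in EpiLCs (d4). *Nanog*, the homeobox factor of the naive state, read 2.63 and 3.70, with 5.04 in ESCs and 3.15 in EpiLCs (d4). *Klf4*, a Krüppel-like factor downstream of LIF, read -0.03 and 1.03, with 3.93 in ESCs and -0.02 in EpiLCs (d4). All 4 genes lay above both scramble EpiLC arrays without PRDM14 and below ESCs.

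Other naive genes past the threshold included *Mylpf* (1.14), *Fbxo15* (0.96), the nuclear receptor gene *Nr5a2* (0.92), the LIF receptor gene *Lifr* (0.73) and *Tfcp2l1* (0.70), a transcription factor that LIF signalling induces. *Gbx2*, at 0.19 and 0.92, was called higher too, but its ESC level was -0.44, so here the KD-labelled array lay away from ESCs. *Esrrb* (1.64 and 2.03), *Klf2* (3.05 and 3.15), *Tbx3* (1.84 and 2.41) and *Zfp42* (5.50 and 6.05) did not pass. Between the arrays labelled + PRDM14 the naive list had a median difference of -0.07, with 5 members higher and 5 lower.

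**Figure D2:**
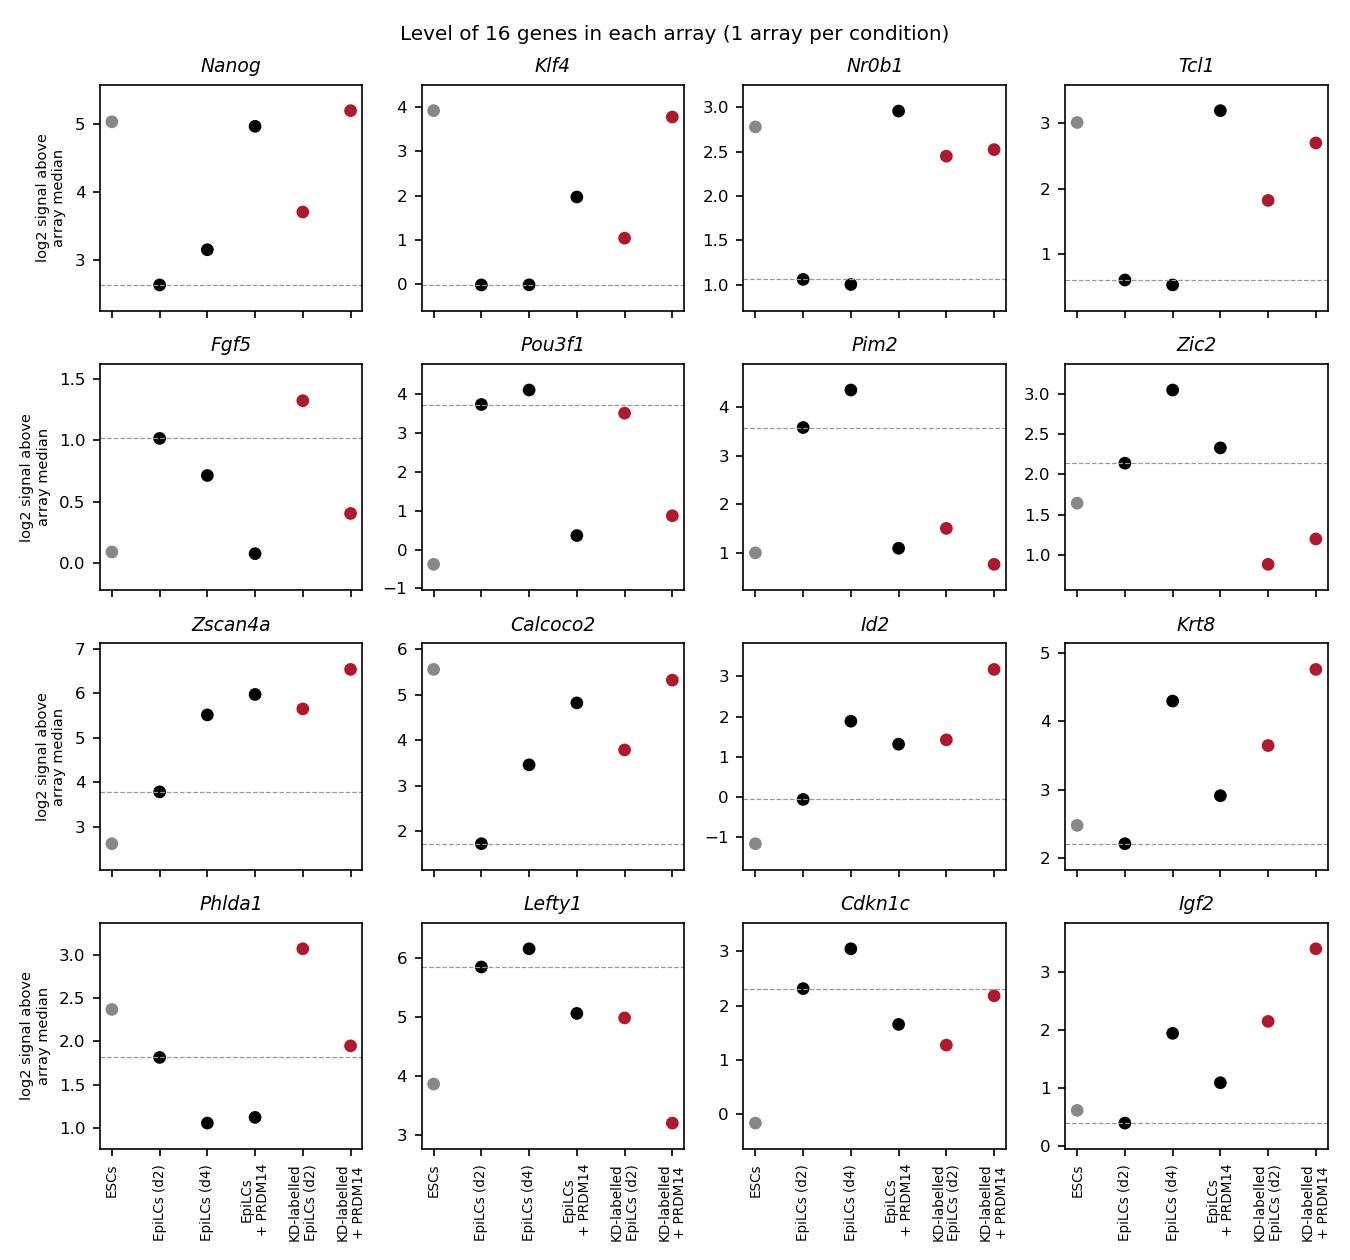
Level of 16 genes in each of the 6 arrays, as log2 signal above the array median, 1 point per array; the dashed line is the level in scramble EpiLCs (d2), and the KD-labelled arrays are red. *Nanog*, *Klf4*, *Nr0b1* and *Tcl1* lie between scramble EpiLCs (d2) and ESCs in the KD-labelled day 2 array, whereas *Fgf5* and *Pou3f1* stay near the scramble level.

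Genes of the 2-cell-like state made up many of the largest increases. This state is a rare and transient condition of cultured ESCs in which genes of the early cleavage embryo are transcribed. Over all genes, 3.3% were called higher and 2.25% lower. Of 16 measured genes of this state, 11 were called higher and 0 lower, with a median difference of 1.18. Several belong to families of near-identical copies, so the probe sets may read more than 1 gene and the identity of the copy is uncertain. *Zscan4a*, of a zinc finger family that marks the state, read 3.78 in scramble EpiLCs (d2) and 5.64 in the KD-labelled array. *Gm5039*, the largest difference of the list (2.44), read 1.29 and 3.73. *Calcoco2*, which encodes an autophagy receptor, read 1.73 and 3.79, with 5.55 in ESCs.

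The KD-labelled array was not the highest of the series for these genes. *Zscan4a* read 5.51 in scramble EpiLCs (d4), 5.97 in scramble EpiLCs + PRDM14 and 6.53 in the KD-labelled + PRDM14 array, and it was lowest in ESCs, at 2.62. The median level of the list was 0.11 in ESCs, 0.30 in scramble EpiLCs (d2), 1.29 in EpiLCs (d4), 1.45 in KD-labelled EpiLCs (d2), 2.21 in scramble EpiLCs + PRDM14 and 2.89 in the KD-labelled + PRDM14 array. The scramble day 2 array and ESCs were thus the low ones. *AF067061* (1.97), *Ubtfl1* (1.89) and *Tcstv1* (1.78) were also higher in EpiLCs (d4) than in scramble EpiLCs (d2) and still higher in KD-labelled EpiLCs (d2). *Usp17la* (1.59), *Tcstv3* (1.41), *Arg2* (0.96), *Zfp352* (0.80) and *Spz1* (0.60) completed the 11.

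Genes of the primed epiblast leaned the other way. Of 35 measured members, 5 were called lower and 2 higher, beside 2.25% lower and 3.3% higher over all genes. Their median difference was -0.21. With the values as deposited, 11 were lower and 1 higher. *Pim2*, a survival kinase gene, had the largest decrease of all genes at or above the array median, at 3.58 in scramble EpiLCs (d2) and 1.51 in the KD-labelled array. It read 1.00 in ESCs and 4.35 in EpiLCs (d4). *Zic2*, a zinc finger factor of the primed epiblast, read 0.89 in the KD-labelled array, below all 4 arrays without the label, which read between 1.65 and 3.04. *Sox11*, an SRY-box factor, read 1.78 and 0.95, with -0.33 in ESCs, so the KD-labelled array again lay between ESCs and the scramble array. *Zic5* (-0.65) and *Cpe* (-0.64) were also lower, and *Krt18* (1.10) and *Car4* (0.63) higher.

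Counts in the FGF-ERK and LIF-STAT3 lists stand beside 3.3% higher and 2.25% lower over all genes. Among 21 measured FGF-ERK target genes, 6 were higher and 1 lower, with a median of 0.17. With the values as deposited, 3 were higher and 3 lower. *Phlda1*, an immediate target of ERK, read 1.81 and 3.08, the highest level of the 6 arrays. *Spry2*, a Sprouty inhibitor of receptor tyrosine kinases, read 3.47 and 4.30, and *Dusp4*, a phosphatase that turns off ERK, 2.00 and 2.75. The transcription factor gene *Egr1* (0.97), *Ier3* (0.63) and the Sprouty gene *Spry1* (0.59) were the other higher members. *Ccnd1*, which encodes cyclin D1, was lower (-0.60). Among 19 LIF-STAT3 genes, 6 were higher and 0 lower. The number higher was 3 when the probe sets of a gene were averaged and 2 with the values as deposited. *Klf4*, *Gbx2*, *Lifr* and *Tfcp2l1* are counted in the naive list as well, and the other two were the kinase genes *Jak2* (0.98 and 1.85) and *Jak1* (1.16 and 1.82). *Socs3*, the feedback inhibitor of the pathway, read 0.10 and -0.14.

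Of 21 BMP-SMAD genes, 3 were higher and 0 lower, and 3 were higher and 2 lower with the values as deposited. The ligand gene *Bmp4* read 0.32 and 1.46. Its target genes *Id2* and *Id3*, inhibitors of bHLH factors, read -0.06 and 1.42 and 0.17 and 1.12. *Id2* had its lowest level in ESCs (-1.16), whereas *Id3* was high there (2.99). Of 23 activin-nodal genes, the secreted inhibitors *Lefty1* (5.84 and 4.98) and *Lefty2* (2.98 and 2.22), which are themselves targets of the pathway, were lower and 0 genes were higher. The WNT list had 1 higher and 1 lower of 32, *Porcn* (0.60) and *Nkd1* (-0.65), beside 3.3% higher and 2.25% lower over all genes.

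Genes of the actin cytoskeleton and of its responsive factor SRF had 9 higher and 1 lower of 35, with a median of 0.30. The shares over all genes were 3.3% higher and 2.25% lower. With the values as deposited, 7 of the 35 were higher and 2 lower. *S100a6*, which encodes a calcium-binding protein, had the largest increase among genes at or above the array median in either array. It read 0.23 in scramble EpiLCs (d2) and 3.05 in the KD-labelled array, a 7.03-fold difference, and between 0.79 and 1.96 in the other 3 arrays without the label. *Cald1*, the actin-binding caldesmon, read 1.00 and 2.997, but scramble EpiLCs (d4) had 2.81, so the scramble day 2 array was the low one. *Anxa1*, a phospholipid-binding annexin, read -0.71 and 0.87. The matricellular genes *Ccn1* (0.17 and 1.41) and *Ccn2* (2.58 and 3.72) were higher as well. *Mylk*, the myosin light chain kinase gene, was lower (-0.65).

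Calls in the matrix and junction lists stand beside 3.3% higher and 2.25% lower over all genes. Extracellular matrix genes had 7 higher and 0 lower of 42, and 3 higher and 3 lower with the values as deposited. They included *Sparc* (2.93 and 4.18), a matrix glycoprotein gene, and the basement membrane collagen genes *Col4a1* (1.04 and 2.08) and *Col4a2* (0.16 and 0.75). Epithelial junction genes had 6 higher and 1 lower of 38, and 3 and 5 with the values as deposited. The simple keratin partners *Krt8* and *Krt18* read 2.21 and 3.64 and 2.25 and 3.35. Both were also high in EpiLCs (d4), at 4.30 and 3.65. *Cldn3* (0.88), *Dsg2* (0.73), *Ocln* (0.72) and *Jup* (0.71), genes of tight junctions and desmosomes, made up the rest.

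**Figure D3:**
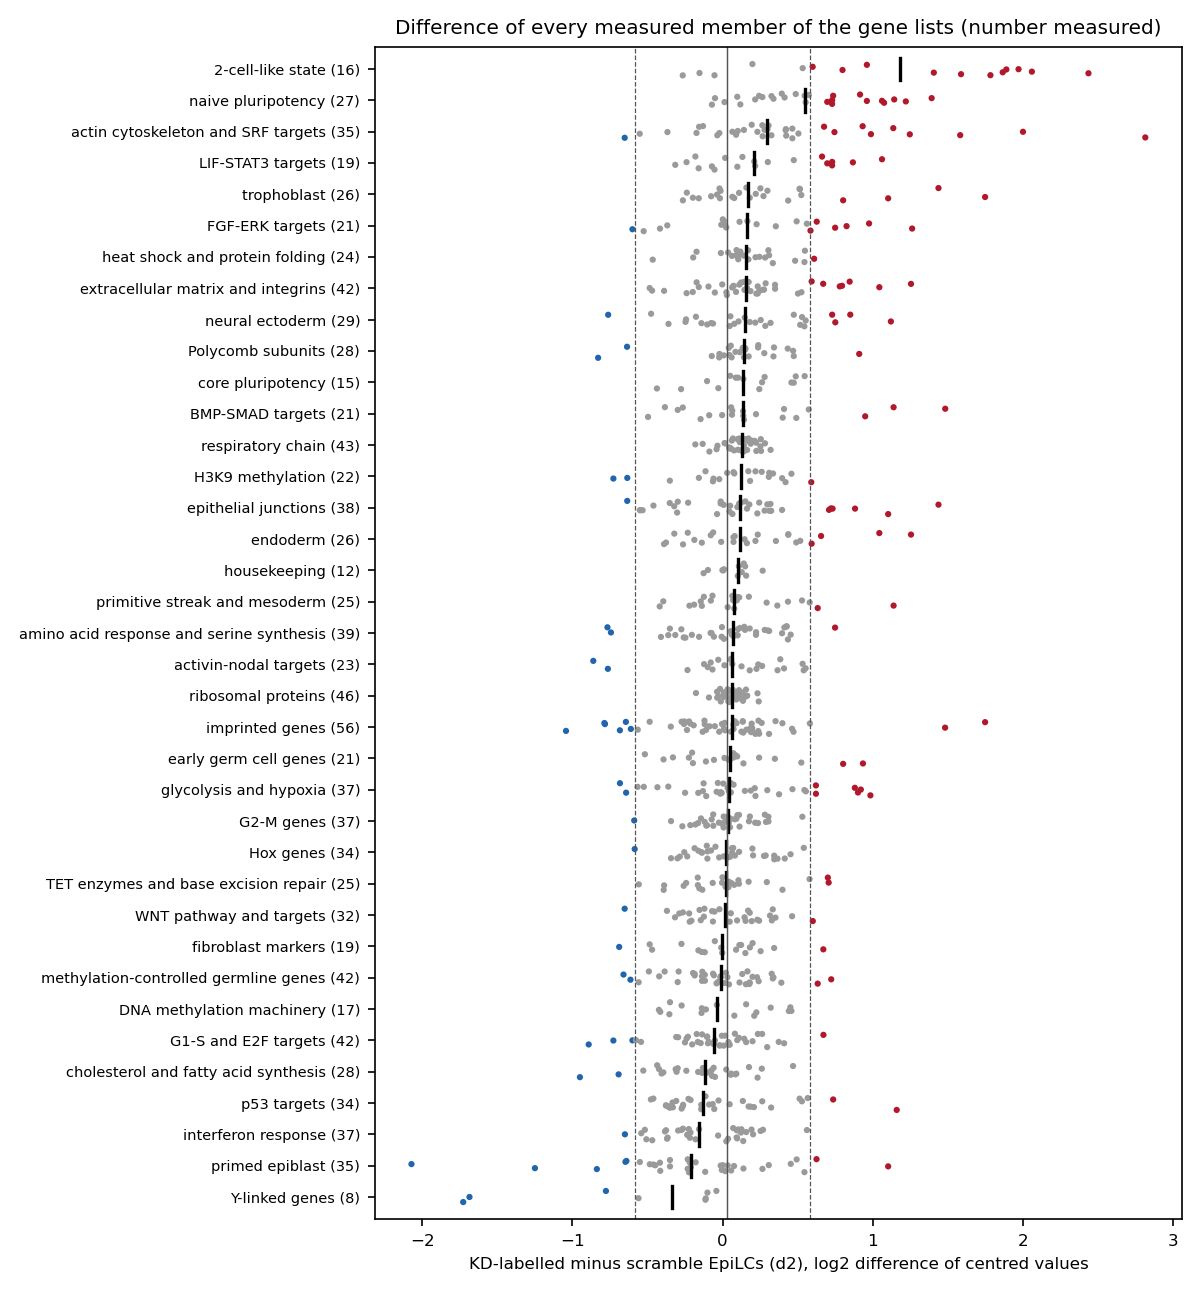
Difference of each measured member of 37 gene lists, KD-labelled minus scramble EpiLCs (d2), with the number measured in brackets; black bars are list medians, the solid line is the median of all genes, dashed lines are 1.5-fold, and red and blue points passed it. The 2-cell-like list (1.18) and the naive list (0.55) have the highest medians, and the Y-linked (-0.34) and primed epiblast (-0.21) lists the lowest.

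Marker genes of other cell types were examined because they could come from differentiating cells in the culture. Counts in the marker lists stand beside 3.3% higher and 2.25% lower over all genes. The endoderm list had 4 higher and 0 lower of 26, and its mean level was 0.54 in the scramble and 0.72 in the KD-labelled array. Its higher members were *Sparc*, *Col4a1*, *Col4a2* and *Apoa1* (0.66). *Apoa1* lay below the array median in both arrays, at -0.86 and -0.21, and its other probe set differed by -0.46. The defining factors were near the array median: *Sox17* read 0.12 and -0.20, *Gata4* -0.19 and -0.26, *Foxa2* 0.51 and 0.24, and *Gata6* 0.45 and 0.97.

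The trophoblast list had 4 higher and 0 lower of 26, with mean levels of 0.60 and 0.89. These were *Igf2*, *Krt8*, *Krt18* and *Rhox9*. The defining trophoblast factors *Cdx2* (0.51 and 0.49), *Elf5* (-0.63 and -0.64) and *Gata3* (-0.66 and -0.74) differed by less than 0.1 in size. The marker *Krt7*, a keratin gene, read -0.41 and 0.02, a difference of 0.44 inside the threshold. Between the arrays labelled + PRDM14, 10 of the 26 trophoblast genes were higher and 0 lower, with a median of 0.39. The neural list had 4 higher and 1 lower of 29, with mean levels of 0.09 and 0.26. The higher members were *Stmn2* (1.96 and 3.08), a microtubule regulator gene of neurons, *Sox21* (0.84 and 1.69), *Nefl* (2.03 and 2.78) and *Gbx2*, and *Hes3* was lower (-0.76). Of the defining neural genes, *Tubb3*, the neuronal tubulin, read 0.66 and 1.13, a difference of 0.47 inside the threshold, *Sox1* -0.51 and -0.75, and *Pax6* 0.32 and 0.24. The mesoderm list had 2 higher and 0 lower of 25, *Bmp4* and *Tbx6* (0.63). *Tbx6* lay below the array median in both arrays, at -0.71 and -0.08. The mesoderm markers *Mesp1* (0.49 and 1.02), *Kdr* (1.55 and 1.84) and *Hand1* (1.89 and 1.96) were all higher but inside the threshold. Fibroblast markers had 1 in each direction of 19, with *Col1a1* at -1.30 and -1.19 and *Thy1* at -0.81 and -0.14. The part of such cells in the other results was not tested.

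Lists linked to DNA methylation are set beside shares of 3.3% higher and 2.25% lower over all genes. Counts of 1 or 2 among them are given as values of single genes. Of 42 germline genes whose promoters are kept silent by methylation, 2 were higher and 2 lower, with a median of -0.01. With the values as deposited, 0 were higher and 6 lower, with a median of -0.23. *Dazl*, an RNA-binding protein gene of germ cells, read 2.84 and 3.57 on its brightest probe set but 1.93 and 1.83 on the other, so its call rests on 1 of 2 probe sets that disagree. *Tex13a* read 1.33 and 1.96. *Sycp3*, of the synaptonemal complex, read 2.02 and 1.36, and *Meioc*, a gene of meiotic entry, 2.01 and 1.39. The DNA methylation machinery had 0 of 17 past the threshold in either direction on the brightest probe sets. When probe sets were averaged, 1 of the 17, *Dnmt3b*, was lower, and with the values as deposited 2 were. Of 25 genes for TET enzymes and base excision repair, *Tet3* and the CXXC-domain gene *Cxxc5* (2.14 and 2.84) were higher and 0 lower. With the values as deposited, 0 of the 25 were higher and 3 lower.

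Of the 17097 genes, 13514 have a promoter in the RefSeq table, which holds 300 bases around the start. Among the genes with 0 to 3 CG dinucleotides there, 3.26% were higher and 2.16% lower. Among those with 4 to 9 they were 3.15% and 3.07%, among those with 10 to 15 2.71% and 2.76%, among those with 16 to 22 3.06% and 1.98%, and among those with 23 to 65 3.31% and 1.85%. Higher calls thus ranged from 2.71% to 3.31%, in no order of CG content, and lower calls were most frequent at 4 to 9 and least at 23 to 65.

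Imprinted genes, which are expressed from 1 parental allele and marked by allelic methylation, had 2 higher and 6 lower of 56, with a median of 0.06. Over all genes the shares were 3.3% higher and 2.25% lower. *Igf2*, the paternally expressed growth factor, read 0.40 and 2.15, and it was also raised in EpiLCs (d4), at 1.94. *Plagl1*, a zinc finger factor, read 1.04 and 2.52, with 4.67 in ESCs. *Cdkn1c*, the maternally expressed cell cycle inhibitor, read 2.31 and 1.27, with -0.17 in ESCs. *Sfmbt2* read 2.57 and 1.78, and the ubiquitin ligase gene *Ube3a* 3.63 and 2.84. *Snurf* (-0.68), *Atp10a* (-0.64) and *H13* (-0.61) were lower too. When probe sets were averaged, 3 imprinted genes were lower instead of 6.

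Calls in the chromatin, growth and metabolic lists are set beside 3.3% higher and 2.25% lower over all genes. Polycomb genes had 1 higher, *Kdm2b* (0.91), which encodes the CpG island reader of PRC1, and 2 lower, *Pcgf2* (-0.83) and *Phf1* (-0.64), of 28. *Hox* genes had 0 higher and 1 lower of 34. G1-S genes had 1 higher and 3 lower of 42, where the inhibitor genes *Cdkn2a* (2.05 and 1.16) and *Cdkn2b* (-0.09 and 0.58) lay on opposite sides. G2-M genes had 0 higher and 1 lower of 37.

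Glycolysis and hypoxia genes had 6 higher and 2 lower of 37, and 3 higher and 0 lower when probe sets were averaged. The glucose transporter gene *Slc2a3* read 4.61 and 5.49, the phosphofructokinase gene *Pfkp* 1.85 and 2.75, and the mitochondrial adenylate kinase gene *Ak4* 1.52 and 2.44, although another probe set of *Ak4* differed by -0.57. The growth factor gene *Vegfa* was lower (-0.68) on its brightest probe set and differed by 0.40 on another. Of 43 respiratory chain genes, 46 ribosomal protein genes and 12 housekeeping genes, 0 passed in either direction.

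In each of the remaining lists at most 2 members were called in either direction. Over all genes 3.3% were higher and 2.25% lower, and counts of 1 or 2 in lists of this size are given as values of single genes, not as a result about the list. Early germ cell genes had 2 higher and 0 lower of 21, the Tudor-domain gene *Stk31* (0.59 and 1.52) and *Rhox9* (-0.32 and 0.48). Genes of H3K9 methylation had 1 higher, the methyltransferase gene *Ehmt2* (0.59), and 2 lower, *Suv39h2* (-0.63) and the histone chaperone gene *Chaf1b* (-0.73), of 22. Serine synthesis and amino acid response genes had 1 higher, the arginine transporter gene *Slc7a3* (0.75), and 2 lower, *Shmt2* (-0.77) and *Psat1* (-0.74), of 39. The call of *Shmt2* rests on its brightest probe set, since the other two differed by 0.72 and 0.33 and their average with it was 0.10. Genes of cholesterol and fatty acid synthesis had 0 higher and 2 lower of 28, *Hsd17b7* (-0.95) and *Insig1* (-0.69). Targets of p53 had 2 higher and 0 lower of 34, *Perp* (1.16) and *Jam2* (0.74), interferon response genes 0 higher and 1 lower of 37, *Irf1* (-0.65), and protein folding genes 1 higher and 0 lower of 24, *Pdia4* (0.61). Core pluripotency genes had 0 of 15 past the threshold and core histone genes 0 of 2.

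Many of the calls set both KD-labelled arrays apart from the rest of the series rather than day 2 alone. Of the 564 higher genes, 117 were at least 1.5-fold above all 4 arrays without the label in both KD-labelled arrays, which is 0.684% of all genes, and of the 385 lower genes, 111 were below them in the same way, 0.649%. On most such probe sets, 188 of 200 above and 166 of 169 below, the levels varied by less than 1.5-fold within the 4 arrays and between the 2 KD-labelled ones. Whether such constant offsets come from the cells of the line or from how the arrays were processed was not tested.

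*Rnf128*, an E3 ubiquitin ligase gene, read 0.44 in scramble EpiLCs (d2) and 2.41 in the KD-labelled array, and its second probe set -0.92 and 0.94. The 4 arrays without the label lay between 0.23 and 0.48 on the first probe set, and the KD-labelled + PRDM14 array read 2.51. *Otog*, the gene of an inner ear matrix protein, read -0.06 and 1.44, with all 4 others between -0.11 and 0.07. *Sox21*, a neural SRY-box factor, read 0.84 and 1.69, with 1.63 in the KD-labelled + PRDM14 array. Among the 4 arrays without the label the ranges of these genes were 0.25, 0.18 and 0.09.

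Y-linked genes were the clearest group on the low side. Of 8 measured genes, 3 were lower and 0 higher, beside 2.25% lower and 3.3% higher over all genes, with a list median of -0.34. When probe sets were averaged, 2 of the 8 were lower. Without the probe sets on which both KD-labelled arrays lie apart, 1 of 6 remained lower. *Eif2s3y*, which encodes a subunit of initiation factor eIF2, read 3.86 in scramble EpiLCs (d2) and 2.18 in the KD-labelled array. It read between 3.86 and 4.31 in the 4 arrays without the label and 2.29 in the KD-labelled + PRDM14 array. *Uty*, a relative of a histone H3K27 demethylase gene, read 1.57 and -0.16, and 0.29 in the KD-labelled + PRDM14 array. *Uba1y*, a ubiquitin-activating enzyme gene, was lower as well (2.77 and 2.00), but it had 1.53 in EpiLCs (d4). Signal from *Eif2s3y* remained well above the array median in both KD-labelled arrays. In bulk RNA a lower level in all cells and a share of cells without the Y chromosome cannot be told apart.

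Among 12 genes that the reference table places on the Y chromosome, 3 (25%) were lower, and the median difference was -0.11. On each autosome the median lay between 0.00 and 0.05. On the X chromosome 23 of 596 genes were higher (3.86%) and 25 lower (4.19%), with a median of 0.01, and 4 of the 20 largest decreases were X-linked, *Pim2*, *Sh3bgrl*, *Zfp280c* and *Acsl4*. *Sh3bgrl*, a small protein with a thioredoxin fold, read 1.24 and -0.64, with -0.89 in ESCs and 3.17 in EpiLCs (d4), and all 3 of its probe sets were lower (-1.87, -1.80 and -0.64). *Acsl4*, a gene for activating polyunsaturated fatty acids, read 3.76 and 2.64.

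**Figure D4:**
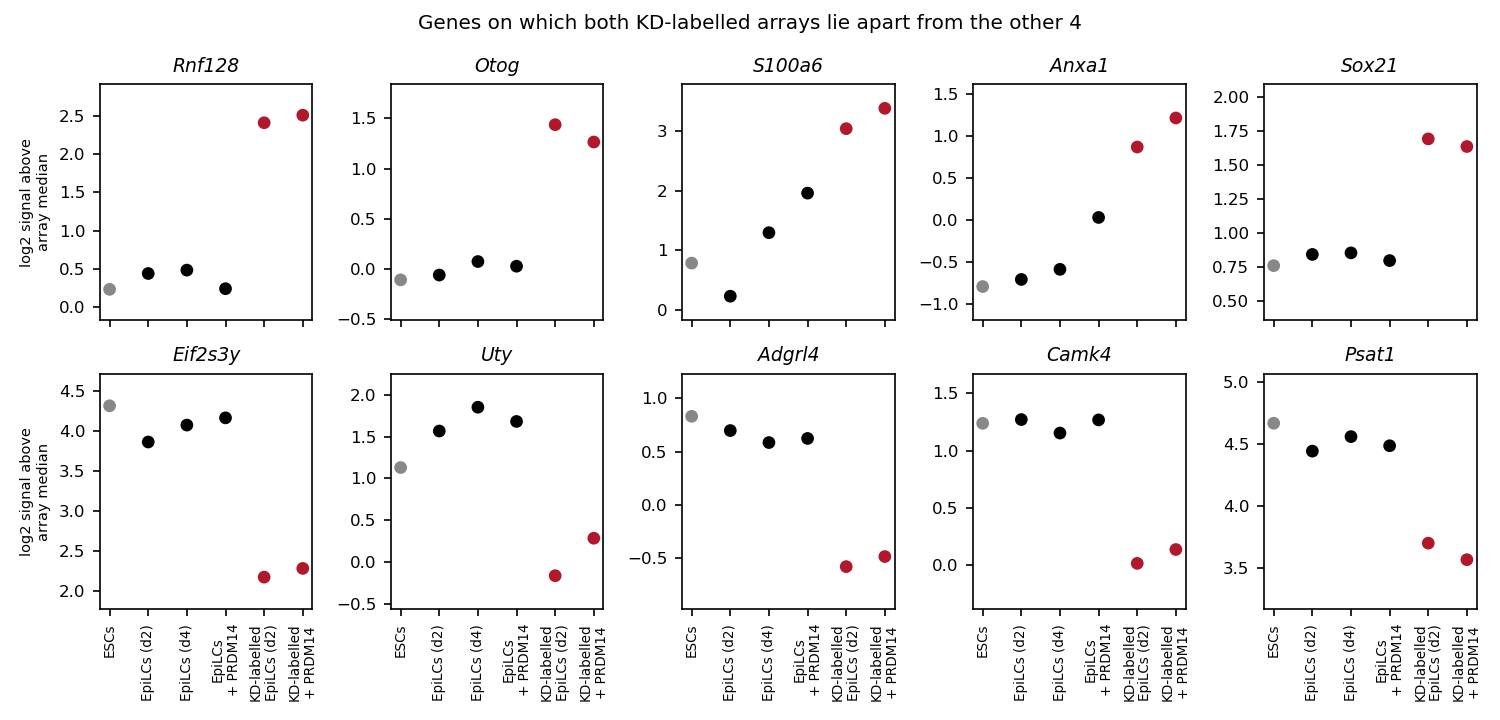
Level of 10 genes in each array, as log2 signal above the array median, 1 point per array, for genes on which both KD-labelled arrays (red) lie at least 1.5-fold beyond the other 4. *Rnf128* is flat at 0.23 to 0.48 in the 4 arrays without the label and at 2.41 and 2.51 in the KD-labelled ones, and *Eif2s3y* drops from at least 3.86 to 2.18 and 2.29.

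Other large decreases fell into these kinds too. The adhesion receptor gene *Adgrl4* read 0.70 and -0.58, *Camk4*, a calcium-dependent kinase gene, 1.27 and 0.02, and *Psat1*, an enzyme gene of serine synthesis, 4.44 and 3.70. Between the 2 KD-labelled arrays these genes differed by 0.09, 0.12 and 0.13. By contrast, *Ramp2*, a coreceptor gene of the calcitonin receptor family, read 3.61 and 2.01 at day 2 and 3.32 and 3.06 in the arrays labelled + PRDM14. *Smc6*, of the SMC5/6 complex, read 2.84 and 1.65 at day 2 and 3.15 and 3.02 with the + PRDM14 label. For *Ramp2* a second probe set was lower as well (-1.86), while the other probe sets of *Smc6* read differences of 0.34 and 0.14.

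The 2 pairs of KD-labelled and scramble arrays share no array, but the KD label goes with the lower deposited median in both. Of 859 probe sets called higher at day 2 (2.97% of the named ones), 488 were also called higher between the arrays labelled + PRDM14, and of 703 called lower (2.43%), 350 were also lower. In opposite directions lay 13 of the 859 and 3 of the 703. In the + PRDM14 pair, 3.58% of all genes were higher and 3.38% lower. Of the 20 largest increases at day 2, 18 passed the threshold in the same direction in the + PRDM14 pair, and of the 20 largest decreases 15. *Igf2* differed by 1.75 at day 2 and 2.30 in the + PRDM14 pair, *Htra1*, a secreted protease gene, by 2.11 and 1.57, and *Ttpa*, the tocopherol transfer protein gene, by -1.19 and -2.34. *Nr0b1* (1.39 and -0.44) and *Pim2* (-2.07 and -0.33) differed mainly at day 2.

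**Figure D5:**
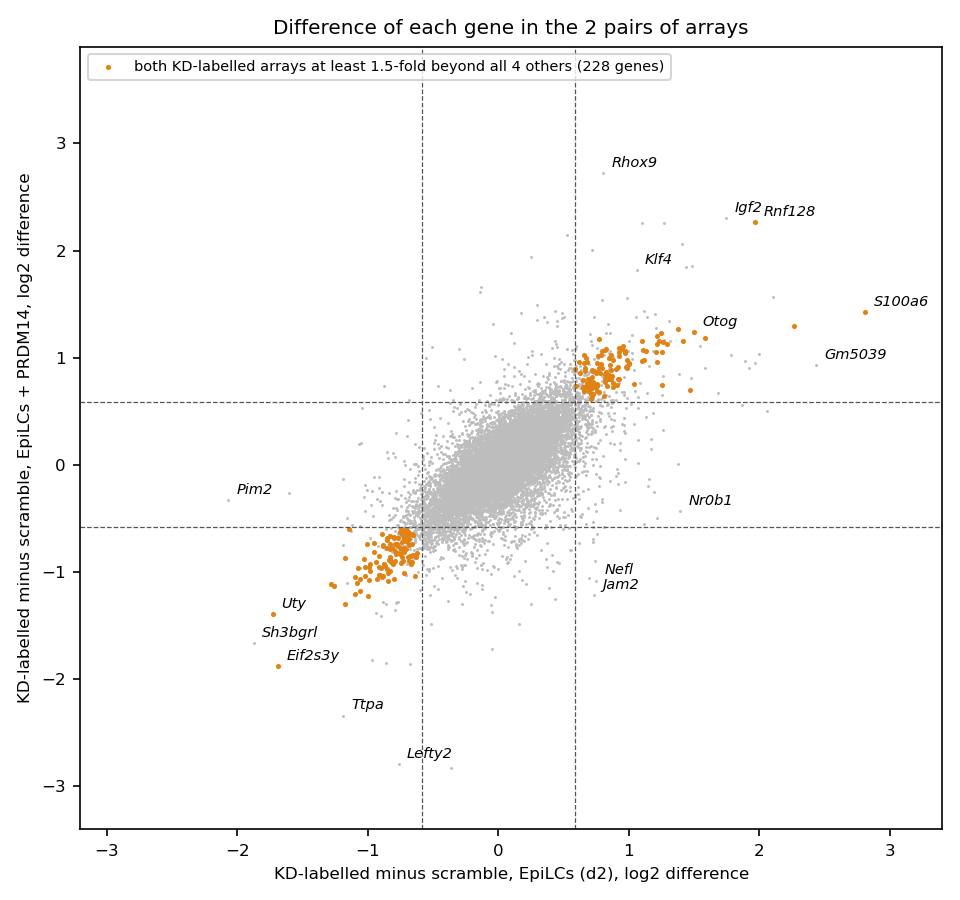
Difference of each gene, KD-labelled minus scramble, at day 2 (horizontal axis) and in the arrays labelled + PRDM14 (vertical axis), on the log2 scale, 1 point per gene, dashed lines at 1.5-fold. The 228 genes on which both KD-labelled arrays lie apart from the other 4 (orange) fill the upper right and lower left corners, and *Pim2* and *Nr0b1* lie near 0 or beyond it on the vertical axis.

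Agreement among probe sets of the same gene bears on these calls. Of 234 higher genes with another probe set, 42 (17.9%) had another one past the threshold in the same direction and 4 in the opposite direction. Of 202 such lower genes the counts were 28 (13.9%) and 5, and 53.8% of their other probe sets had the same sign, against 67.8% for the higher genes. Among other probe sets at or above the array median, 34 of 104 higher genes (32.7%) and 19 of 94 lower genes (20.2%) had another one past the threshold in the same direction. Most calls on genes with several probe sets thus rest on 1 of them. *Krt8* (1.44 and 1.82), *Uty* (-1.73 and -0.79) and *Klf4* (1.06 and 0.59) were among the named genes with more than 1 probe set past the threshold. *Srrm2*, a splicing factor gene, was called lower on its brightest probe set (-1.15), but another bright probe set read a difference of 0.04. Further called genes had another probe set above the array median that did not follow, among them *Lifr* (0.73 and -0.37), *Cxxc5* (0.71 and -0.16), *Dsg2* (0.73 and -0.10), *Sox11* (-0.84 and 0.14), *Hsd17b7* (-0.95 and 0.15), *Suv39h2* (-0.63 and -0.07) and *Uba1y* (-0.78 and -0.12).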

How the data were processed

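Total RNA of 6 cultures, 1 per condition, was labelled by 3' in vitro transcription and measured on Affymetrix MG-430 PM array strips (GeneAtlas). The authors processed the scans with RMA (robust multi-array average, default settings) in Affymetrix Expression Console, version not given in the sources used here, and deposited log2 values. Growth media for ESCs differ between the labels and the methods, and which was used is not settled.

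From these values 104 control probe sets were left out, the median of each array over the other 45037 was subtracted, and the scramble day 2 array was subtracted from the KD-labelled one. The platform annotation gives 1 symbol for 28898 probe sets, several for 551 and none for 15588. Gene values are those of the brightest probe set over the 6 arrays. Chromosomes and promoter sequences come from RefSeq tables (GRCm38.p6), and no coordinates are given because the files hold none. The threshold of 1.5-fold is that of the methods; with 1 array per condition no test is possible. Arithmetic was tested on simulated arrays with known differences. Python 3.11.15, pandas 2.3.3, numpy 2.4.6 and statsmodels 0.14.6 were used.

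The members, the 38 gene lists (1183 symbols, 991 measured, 84 genes in more than 1 list) and the thresholds were chosen with earlier results of these data known. Named genes are *Tet2*, *Tet3* and *Prdm14*, the 20 largest increases and decreases among genes at or above the array median in either array, the 5 largest members of each list, and fixed cell type markers. *Fbxo15*, *Nr5a2*, *Car4*, *Cpe*, *Jak1*, *Socs3*, *Spry1*, *Tcstv3*, *Arg2*, *Zfp352*, *Spz1*, *Mylk*, *Jup*, *Snurf*, *Atp10a* and *H13* were added after their values were seen. The alternatives were values as deposited, quantile normalization of the 6 arrays, a lowess curve (span 0.2), a filter on dim probe sets, a 2-fold threshold, other rules from probe sets to genes, and, added after seeing the data, leaving out probe sets on which the KD-labelled arrays lie apart.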

Additional observations from a re-analysis of the deposited data

Results flagged for a closer look

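Of all genes, 10 passed 1.5-fold in opposite directions in the 2 pairs of KD-labelled and scramble arrays, and 4 of them are among the named genes. With 1 array per condition the difference between the pairs was not tested. *Gbx2*, a homeobox factor gene of the naive state, differed by 0.73 at day 2 and by -0.72 between the arrays labelled + PRDM14. *Lifr*, the LIF receptor gene, differed by 0.73 and -0.69. *Jam2*, a junctional adhesion molecule gene that is high in ESCs (3.45), differed by 0.74 and -1.21. *Nefl*, which encodes the light neurofilament chain, differed by 0.75 and -1.08.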

How the results depend on the processing

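Renewed quantile normalization, the lowess curve, the filter on dim probe sets and leaving out probe sets on which the KD-labelled arrays lie apart kept the counts of calls within 1.5 times. With values as deposited, 284 probe sets were higher and 2259 lower, 192 genes higher and 1276 lower, and 1434 probe sets passed the same way in both pairs instead of 838. This setting keeps the difference of -0.21 between the array medians, so that 35 of the 38 list medians were below 0 and those of the naive, 2-cell-like and actin lists above it. At 2-fold, 123 and 71 probe sets, 85 and 37 genes, and 82 probe sets in both pairs passed. Lower genes numbered 223 when probe sets were averaged and 656 when at least 1 had to pass, instead of 385. Among probe sets at or above the array median the list medians were 0.50 for neural ectoderm, 1.496 for the 2-cell-like list and -0.78 for Y-linked genes, over 16, 12 and 5 genes, so fewer genes entered. *Shmt2* was lower on its brightest probe set and at 0.10 when its 3 probe sets were averaged; the cause was not tested. Signal limits the dimmest probe sets, few of which passed. No paired analysis was possible because each condition has 1 array.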
